A study of Mus musculus with 14 samples.

Results

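The renin-angiotensin genes described here are *Agtr2*, *Agtr1a*, *Agtr1b*, *Mas1*, *Agt*, *Ace* and *Enpep*, 7 of the 19505 genes that the Clariom S Mouse array measures with a feature of 1 gene symbol. Each has 1 feature, and all 7 were measured on every array. The list was put together because *Agtr2* fell strongly on the soft gel, so its difference between the gels is given as a description with no test. The arrays hold RNA of mouse embryonic fibroblasts collected 2 weeks after retroviral transduction with Gata4, Hand2, Mef2c and Tbx5 (GHMT), the factor mixture for direct cardiac reprogramming, which every group received. GHMT/8 kPa cells were grown on a soft Matrigel-based hydrogel and GHMT/126 kPa cells on a rigid one. GHMT/shYAP, GHMT/shTAZ and GHMT/Scramble cells were grown on 126 kPa and also received lentiviral hairpins against YAP, against TAZ or of scrambled sequence. GHMT/YAP-5SA and GHMT/TAZ-4SA cells were grown on 8 kPa and also received retrovirus for a constitutively active mutant of YAP or of TAZ. Each of the 7 groups has 2 arrays of independent cultures, 14 in all, and the study's fibroblasts came from mice that carry a cardiomyocyte-specific GFP reporter. No sort of cells is described for the arrays, and in bulk RNA fewer cells of a type and less RNA per cell cannot be told apart.

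In the renin-angiotensin system, the precursor angiotensinogen (*Agt*) is cut by renin into angiotensin I, and angiotensin-converting enzyme (*Ace*) turns that into angiotensin II. Angiotensin II acts on the type 1 receptor, which rodents make from the paralogs *Agtr1a* and *Agtr1b*, and on the type 2 receptor (*Agtr2*), which often opposes the type 1 receptor. *Agtr2* is known for high expression in fetal mesenchyme and low expression in most adult tissues. Aminopeptidase A (*Enpep*) trims angiotensin II to angiotensin III, and *Mas1* is the receptor of angiotensin 1-7. In the heart, type 1 receptor signalling is known for driving hypertrophy and fibrosis. YAP and TAZ are coactivators that respond to matrix stiffness and reach DNA through TEAD factors.

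The member genes lie on 6 chromosomes of the mouse assembly GRCm38.p6, with *Agtr1b* (chr3:20314473-20367177) and *Enpep* (chr3:129269177-129332749) sharing one. *Agtr2* is at chrX:21484624-21488833, *Agtr1a* at chr13:30336356-30382867 and *Mas1* at chr17:12838841-12868150. *Agt* is at chr8:124556587-124569706 and *Ace* at chr11:105967948-105989964. Promoter sequences from RefSeq on GRCm38.p6, running from 250 bases before to 50 bases after a gene's start, were matched for 6 of the 7 genes. They were searched on both strands for the core TEAD motif CATTCC, or GGAATG on the other strand, because the groups differ in YAP and TAZ. The *Mas1* promoter (chr17:12868094-12868393, minus strand) held 3 matches and the promoters of the other 5 matched genes held 0, both *Ace* promoters included. At least 1 match was present in 4817 of 32851 promoters of this length (14.7%), and at least 3 were present in 43 (0.131%). A match is a string of letters and was not tested as a binding site. The promoter of *Agtr2* (chrX:21484374-21484673, plus strand), for which the list was chosen, is shown with that of *Mas1*, in which capitals mark the motif. Those of *Agt* (chr8:124569657-124569956, minus strand) and *Enpep* (chr3:129332700-129332999, minus strand) are shown because these genes stood with *Agtr2* among the low values of the mutant arrays. All read 5′ to 3′ along the gene's strand.
Agtr2: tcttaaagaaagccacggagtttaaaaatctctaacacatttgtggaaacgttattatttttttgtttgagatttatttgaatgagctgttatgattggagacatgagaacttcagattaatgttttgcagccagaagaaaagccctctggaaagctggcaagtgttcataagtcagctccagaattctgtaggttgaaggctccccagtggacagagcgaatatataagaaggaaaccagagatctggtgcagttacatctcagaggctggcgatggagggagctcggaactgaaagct
Mas1: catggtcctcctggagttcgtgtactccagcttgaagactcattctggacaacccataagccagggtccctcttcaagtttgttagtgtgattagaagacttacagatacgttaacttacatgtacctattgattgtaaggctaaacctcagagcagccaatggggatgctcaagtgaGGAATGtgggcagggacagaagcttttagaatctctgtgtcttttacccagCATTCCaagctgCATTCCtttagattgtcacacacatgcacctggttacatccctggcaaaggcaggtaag
Agt: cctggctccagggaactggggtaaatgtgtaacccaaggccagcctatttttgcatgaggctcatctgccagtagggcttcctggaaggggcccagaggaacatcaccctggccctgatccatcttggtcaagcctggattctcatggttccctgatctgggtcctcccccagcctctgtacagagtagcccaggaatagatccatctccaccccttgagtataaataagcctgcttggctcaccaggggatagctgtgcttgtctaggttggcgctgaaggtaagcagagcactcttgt
Enpep: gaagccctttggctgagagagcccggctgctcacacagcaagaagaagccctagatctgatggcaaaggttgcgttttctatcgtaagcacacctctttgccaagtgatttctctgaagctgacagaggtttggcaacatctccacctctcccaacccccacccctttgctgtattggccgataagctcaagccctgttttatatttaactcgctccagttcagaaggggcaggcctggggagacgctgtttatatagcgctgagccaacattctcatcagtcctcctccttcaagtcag

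Every value is a log2 ratio made by the authors within 1 of 3 sets of arrays. The 2 gels form a set with ratios to the mean of GHMT/126 kPa, so the 126 kPa arrays mirror each other around 0, as the Scramble arrays do in the shRNA set. The reference of the mutant set is not given in the sources used here. Levels of different genes cannot be ranked on this scale, and whether a gene lay above background was not analysed here. For the same reason the labelled fibroblast type could not be checked by level, only by how its markers moved. In the hairpin groups, *Yap1*, which encodes YAP, was at -0.89 and -0.88 with shYAP, against -0.11 and 0.11 with Scramble, a fall of 0.88 on the log2 scale (SE 0.12, limma adjusted p = 0.0498). With all arrays kept, this call passed after median centring and in the fit to 14 arrays (limma adjusted p = 0.0385 and 0.0086). It was lost with a replicate block, array weights or only the groups compared (limma adjusted p = 0.0887, 0.0656 and 0.151). With only those groups, 2 of all features passed. The call was also lost without Scramble replicate 1. Leaving out a shYAP or shTAZ array left few or none of all features passing. A lost call there thus says little about *Yap1*. With each array left out in turn, the *Yap1* difference stayed between -0.996 and -0.769. *Wwtr1*, which encodes TAZ, was at -0.36 and -0.31 with shTAZ, against -0.25 and 0.25 with Scramble, a difference of -0.34 (SE 0.17, limma adjusted p = 0.430). The *Wwtr1* transcript was thus below both Scramble arrays in both shTAZ arrays without passing the test, in a comparison where 0% of all features passed. The paper reports reduced YAP and TAZ with these hairpins, by qRT-PCR and western blot. Macrophage markers, measured for 17 of the 18 genes listed, moved furthest of the 5 cell type lists on the gels and with the hairpins, and their values stand beside the results they accompany.

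On 8 kPa the angiotensin II type 2 receptor was far lower than on 126 kPa and the type 1 receptors were close to their 126 kPa values, while *Enpep* was lower and *Ace* and *Mas1* were higher. *Agtr2* was at -2.92 and -2.75 on 8 kPa, against -0.02 and 0.02 on 126 kPa. Its mean difference of -2.84 is a level 7.14-fold lower and the 6th lowest difference among 22206 features. Both soft-gel arrays stood far below both rigid-gel arrays, and the arrays within each gel were close to each other.

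Small differences were seen for the type 1 receptors. *Agtr1a* was at -0.23 and -0.10 on 8 kPa, against -0.16 and 0.16 on 126 kPa, with overlapping groups and a mean difference of -0.16. *Agtr1b* was at 0.01 and -0.06 on 8 kPa, against 0.15 and -0.15 on 126 kPa, a difference of -0.026. *Agtr1a* and *Agtr1b* are close paralogs, and how the array's probes separate them was not analysed here, so values of either are uncertain to that extent. *Mas1* was at 0.67 and 0.58 on 8 kPa, against -0.27 and 0.27 on 126 kPa. Its groups did not overlap and its difference was 0.62, although the 126 kPa arrays lay 0.54 apart. The receptor genes thus did not share a direction on the soft gel.

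Among the precursor and the enzymes, *Agt* was at 0.12 and -0.04 on 8 kPa, against -0.10 and 0.10 on 126 kPa, a difference of 0.04 between overlapping groups. *Ace* was at 0.68 and 0.72 on 8 kPa, against -0.02 and 0.02 on 126 kPa. Its difference of 0.70 was the 353rd highest of 22206, with arrays that nearly coincided within each gel. *Enpep* was at -0.75 and -1.14 on 8 kPa, against 0.01 and -0.01 on 126 kPa, and its difference of -0.94 was the 220th lowest. *Ace* RNA was thus higher, and *Enpep* RNA lower, in the soft-gel arrays than in the rigid-gel arrays, which measure no enzyme or peptide.

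On the soft gel 3 of the 7 genes had a positive and 4 a negative difference, and their median was -0.026 beside 0.034 over all features. Just 1 of them, *Agtr2*, was lower by at least 2-fold, and 0.815% of all features were (181 of 22206). Groups did not overlap for 4 of the 7, *Agtr2*, *Enpep*, *Ace* and *Mas1*, where 42% of all features did not overlap. As the list was chosen on this contrast, nothing is read from these shares. The macrophage list moved with *Agtr2* here. Its median was at -1.50 and -1.52 on 8 kPa, against 0.08 and -0.08 on 126 kPa, and 17 of 17 genes were lower, with differences between -2.97 and -0.22. Whether this had a part in the *Agtr2* difference was not tested. Median differences of the other marker lists were 0.18 for endothelial cells, -0.26 for pericytes and smooth muscle, -0.068 for fibroblasts and -0.055 for cardiomyocytes.

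**Figure D1:**
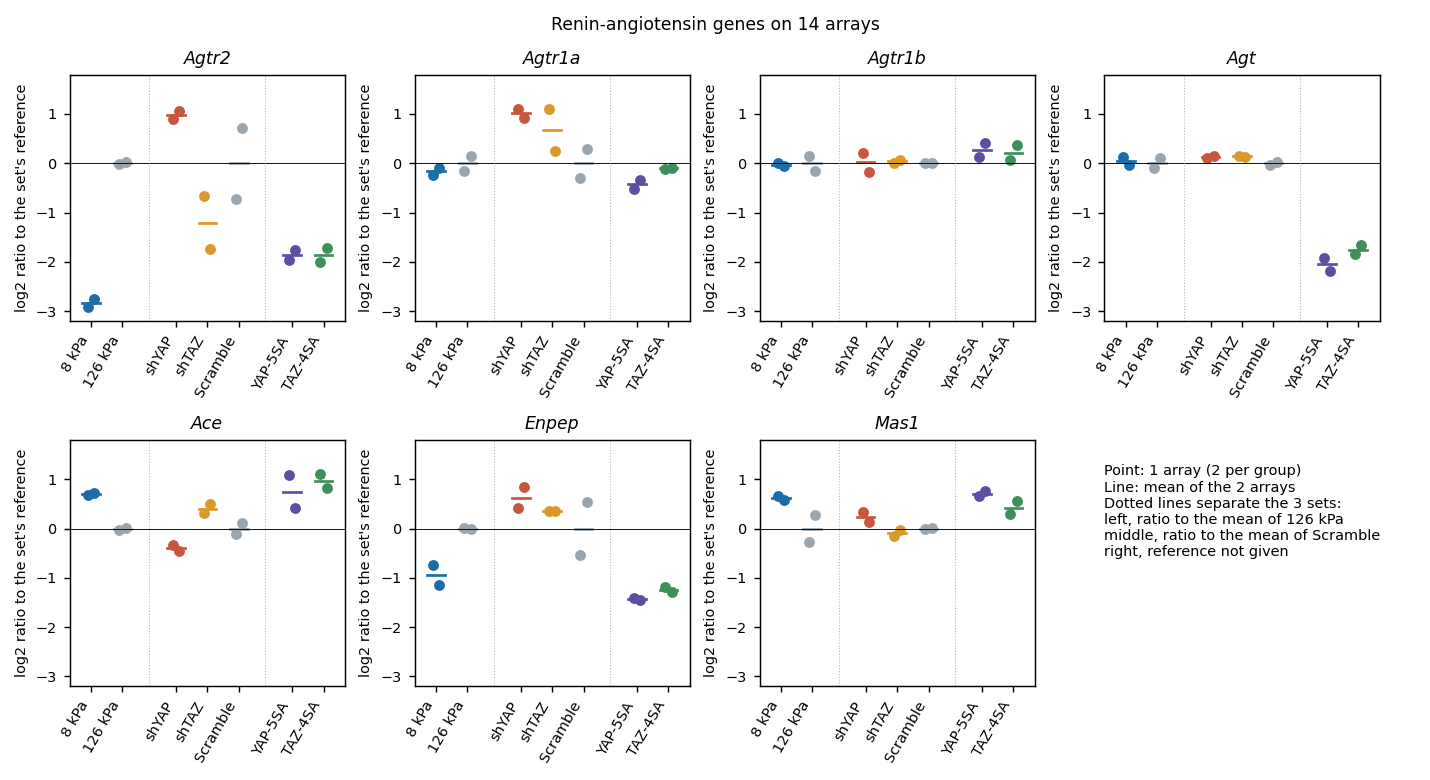
Log2 ratio of each of the 7 genes (y axis) on every array, by group (x axis), with a line at the mean of the 2 arrays of a group and dotted lines between the 3 sets, whose references differ. *Agtr2* sat at -2.92 and -2.75 on 8 kPa, *Agt* lay between -2.18 and -1.66 with YAP-5SA and TAZ-4SA and between -0.10 and 0.15 in the other sets, and *Agtr1b* stayed between -0.17 and 0.41.

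The shRNA groups asked whether losing YAP or TAZ on the rigid gel moves the same genes. *Agtr2* was at 0.89 and 1.07 with shYAP, at -0.67 and -1.74 with shTAZ and at -0.72 and 0.72 with Scramble. Both shYAP arrays lay above both Scramble arrays, while 1 of the shTAZ arrays fell inside the Scramble range, which spans 1.43 on the log2 scale. The difference of shYAP from Scramble was 0.98 (SE 0.51, 95% interval -0.26 to 2.22, limma adjusted p = 0.353). That of shTAZ from Scramble was -1.21 (SE 0.51, 95% interval -2.45 to 0.03, limma adjusted p = 0.358). Neither passed the threshold of 0.05 on the adjusted p, and both intervals include 0.

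Set against each other, the shYAP and shTAZ arrays differed in *Agtr2* by 2.19 (SE 0.51, 95% interval 0.95 to 3.43), the 15th largest difference in size of 22122 features. It did not pass after adjustment over all features (limma adjusted p = 0.394), and the adjusted p lay between 0.0771 and 0.999 in 11 alternatives. All shYAP arrays stood above all shTAZ arrays. This contrast does not use the Scramble arrays for the difference itself, though it shares the spread estimated with them.

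*Agtr1a* was at 1.10 and 0.92 with shYAP, at 1.10 and 0.25 with shTAZ and at -0.29 and 0.29 with Scramble. The shYAP arrays were above the Scramble arrays by 1.01 on average (SE 0.31, 95% interval 0.27 to 1.76, limma adjusted p = 0.176), a difference that was under 0.05 only before adjustment. With shTAZ the difference was 0.68 (SE 0.31, limma adjusted p = 0.387), with 1 array inside the Scramble range. *Agtr1b* was at 0.20 and -0.17 with shYAP and at 0.00 and 0.07 with shTAZ, while the Scramble arrays were less than 0.01 apart. Differences of *Agtr1b* from Scramble were 0.016 with shYAP and 0.037 with shTAZ, well inside the spread of the shYAP arrays. *Mas1* was at 0.33 and 0.14 with shYAP, at -0.16 and -0.03 with shTAZ and at -0.02 and 0.02 with Scramble. It differed from Scramble by 0.23 with shYAP (limma adjusted p = 0.326) and by -0.10 with shTAZ (limma adjusted p = 0.751), and shYAP from shTAZ by 0.33 (SE 0.11, limma adjusted p = 0.569).

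*Agt* was at 0.10 and 0.15 with shYAP, at 0.15 and 0.13 with shTAZ and at -0.03 and 0.03 with Scramble. On average the arrays were above Scramble by 0.12 with shYAP (limma adjusted p = 0.525) and by 0.14 with shTAZ (limma adjusted p = 0.566). *Ace* was at -0.33 and -0.45 with shYAP, at 0.31 and 0.49 with shTAZ and at -0.11 and 0.11 with Scramble. The 3 groups were fully separate for *Ace*, with shYAP lowest and shTAZ highest. Its differences from Scramble were -0.39 with shYAP (SE 0.13, limma adjusted p = 0.198) and 0.40 with shTAZ (SE 0.13, limma adjusted p = 0.254). Between shYAP and shTAZ the *Ace* difference was -0.79 (SE 0.13, 95% interval -1.10 to -0.48, limma adjusted p = 0.214), again under 0.05 only before adjustment.

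*Enpep* was at 0.41 and 0.83 with shYAP, at 0.35 and 0.35 with shTAZ and at -0.53 and 0.53 with Scramble. Both hairpin groups overlapped the Scramble arrays, and the differences from Scramble were 0.62 with shYAP (SE 0.34, limma adjusted p = 0.365) and 0.35 with shTAZ (SE 0.34, limma adjusted p = 0.677). The *Enpep* differences depended on which Scramble array was kept. Without Scramble replicate 2 its differences were 1.15 with shYAP (limma adjusted p = 0.0176) and 0.88 with shTAZ (limma adjusted p = 0.0474), both past the test. Without Scramble replicate 1 they were 0.09 with shYAP and -0.18 with shTAZ. Differences of *Agtr2* from Scramble were 1.70 with shYAP and -0.49 with shTAZ without Scramble replicate 2, and 0.26 with shYAP and -1.92 with shTAZ without Scramble replicate 1, and none of these passed.

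Over the 7 genes, 0 passed the test in shYAP against Scramble, where 0.533% of all features did (118 of 22122). Before adjustment 1 was higher (*Agtr1a*) and 1 was lower (*Ace*) at an unadjusted p under 0.05, beside 2520 higher and 1635 lower of the 22122 features. In shTAZ against Scramble 0 passed, as did 0% of all features. Without adjustment 1921 features were higher at p under 0.05 and 1263 were lower, and *Ace* was the 1 of the 7 genes among them. In shYAP against shTAZ 0 passed, where 0.0452% of all features did (10 of 22122). At an unadjusted p under 0.05 *Agtr2* and *Mas1* were higher and *Ace* was lower, beside 869 higher and 923 lower of the 22122 features. The groups did not overlap for 5 of the 7 with shYAP against Scramble (50.6% of all features), for 3 with shTAZ against Scramble (46.5%) and for 4 with shYAP against shTAZ (44.1%). The first 2 comparisons share the Scramble arrays. Median differences of the 7 genes were 0.23, 0.14 and 0.27 in these 3 comparisons, beside 0.050, 0.043 and 0.012 over all features.

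Scramble arrays differed from each other in macrophage markers as well as in *Agtr2*. The macrophage list had a median of -2.24 and -3.75 with shYAP and of -4.97 and -5.09 with shTAZ, against 1.18 and -1.18 with Scramble. All 17 genes were lower than Scramble with each hairpin, by a median of -3.06 with shYAP and -5.03 with shTAZ, and all 17 were higher with shYAP than with shTAZ. None of those 17 passed the test after adjustment, with 15 lower with shYAP and 17 lower with shTAZ at an unadjusted p under 0.05. More of them passed with a Scramble array left out. Most did without Scramble replicate 2, where far more of all features passed too. In the fit to all 14 arrays, 6 of the 17 passed as lower with shYAP and 14 with shTAZ. There 568 and 392 of all features passed. With the replicate block 1 of the 17, *Cd14*, passed as lower with shYAP. The Scramble array with higher macrophage markers was the one with lower *Agtr2*. Both shYAP arrays were below both Scramble arrays in the macrophage median and above both in *Agtr2*. The shTAZ arrays were lowest in the macrophage median, with *Agtr2* at -0.67 and -1.74. The part of these markers in the *Agtr2* differences was not tested. Cardiomyocyte genes had a median difference from Scramble of 1.07 with shYAP and of 0.78 with shTAZ. With shYAP 6 of 10 passed as higher and 1 as lower, and with shTAZ 0 of 10 passed. The shYAP calls were lost without any 1 of the shYAP or shTAZ arrays, where few or none of all features passed. Fewer passed with shYAP without Scramble replicate 1. More of the 10 passed with each hairpin without Scramble replicate 2, where far more of all features did too. Fibroblast markers differed by a median of 0.23 with shYAP and 0.21 with shTAZ.

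**Figure D2:**
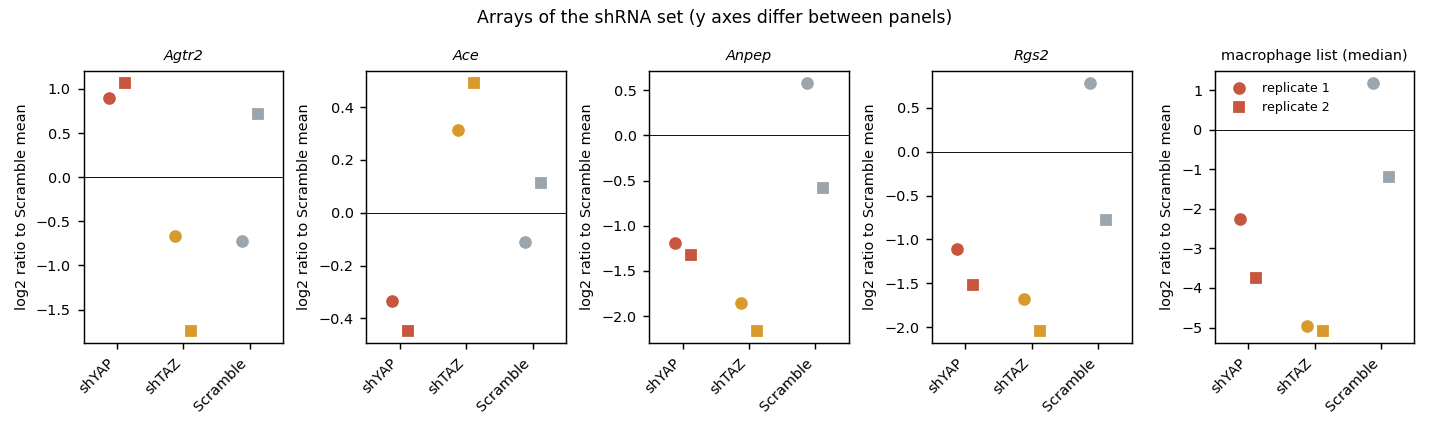
Log2 ratio to the Scramble mean (y axis, scaled separately in each panel) on the 6 arrays of the shRNA set for *Agtr2*, *Ace*, *Anpep*, *Rgs2* and the median of the macrophage markers, with circles for replicate 1 and squares for replicate 2. *Agtr2* and the macrophage median have opposite order on the Scramble arrays, at -0.72 and 0.72 for *Agtr2* and at 1.18 and -1.18 for the macrophage median.

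**Figure D3:**
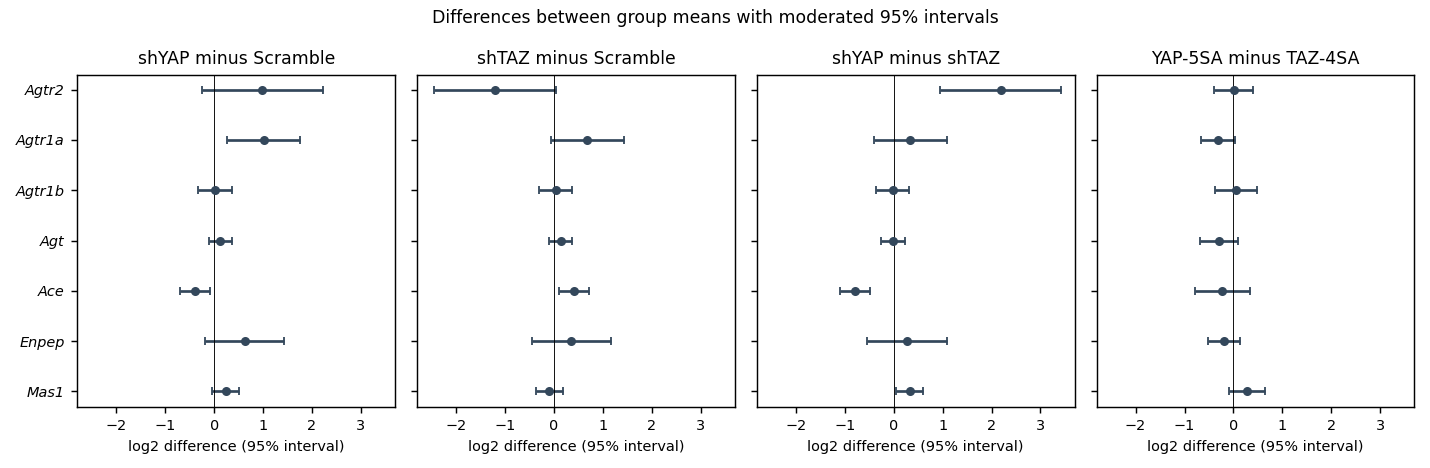
Difference between group means in log2 (x axis) of the 7 genes (y axis) in the 4 tested comparisons, with moderated 95% intervals from limma. *Agtr2* has the widest intervals in the shRNA set. Its difference was 2.19 between shYAP and shTAZ and 0.0018 between YAP-5SA and TAZ-4SA, and neither passed the test after adjustment.

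Between constitutively active YAP and TAZ on the soft gel, 0 of the 7 genes differed past the test. *Agtr2* was at -1.96 and -1.77 with YAP-5SA and at -2.01 and -1.72 with TAZ-4SA, and the groups overlapped. The difference was 0.0018 (SE 0.17, 95% interval -0.39 to 0.40, limma adjusted p = 0.999). *Agtr1a* was at -0.51 and -0.33 with YAP-5SA and at -0.11 and -0.10 with TAZ-4SA, a difference of -0.32 (SE 0.14, limma adjusted p = 0.399) between groups that did not overlap. *Agtr1b* was at 0.13 and 0.41 with YAP-5SA and at 0.07 and 0.37 with TAZ-4SA, a difference of 0.05 inside the spread of both groups. *Mas1* was at 0.66 and 0.75 with YAP-5SA and at 0.29 and 0.55 with TAZ-4SA, a difference of 0.28 (limma adjusted p = 0.480).

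*Agt* was at -1.92 and -2.18 with YAP-5SA and at -1.84 and -1.66 with TAZ-4SA, a difference of -0.29 (SE 0.16, limma adjusted p = 0.480). The YAP-5SA arrays were lower than both TAZ-4SA arrays. *Ace* was at 1.08 and 0.41 with YAP-5SA and at 1.12 and 0.83 with TAZ-4SA, with overlapping groups and a difference of -0.22 (limma adjusted p = 0.734). *Enpep* was at -1.42 and -1.46 with YAP-5SA and at -1.19 and -1.29 with TAZ-4SA, a difference of -0.20 (limma adjusted p = 0.595) between groups that did not overlap. Of the 7 genes, 0 passed this test, where 0.895% of all features passed (198 of 22127). At an unadjusted p under 0.05 were 0 of the 7, beside 1450 higher and 1548 lower of all features. Groups did not overlap for 4 of the 7, and for 45.7% of all features. The median difference of the 7 genes was -0.20, beside -0.0086 over all features.

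As deposited, the mutant ratios themselves place these genes unevenly, although their reference is not given and no test was made on them. *Agt* averaged -1.90 over the 4 mutant arrays, the 99th lowest mean of 22127 features, and *Agtr2* averaged -1.86, the 105th lowest. *Enpep* averaged -1.34, the 219th lowest, so 3 of the 7 genes were among the 396 features (1.79%) with a mean of -1 or less. At the other end *Ace* averaged 0.86, the 321st highest, and *Mas1* averaged 0.56, while *Agtr1a* averaged -0.26 and *Agtr1b* 0.24. Each of the 7 genes had 1 sign on all 4 mutant arrays, but how many of all features did was not counted, so nothing is read from it.  The mutant cells were grown on the soft gel, and the list was chosen because *Agtr2* was low there. If the reference of the mutant set was the rigid gel, its low means may repeat that choice. Nothing is therefore read from the share of the 7 genes with a mean of -1 or less. The mutant ratios cannot be subtracted from those of the gels because the references may differ. Macrophage marker medians were -2.20 and -0.98 with YAP-5SA and -2.09 and -2.50 with TAZ-4SA, and cardiomyocyte genes were lower with YAP-5SA than with TAZ-4SA by a median of -1.48, 6 of 10 passing the test. Neither list's part in the values of the 7 genes was tested.

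Other genes that make, cut or bind angiotensin peptides were measured for 14 of 17 listed. Differences on 8 kPa were positive for 10 and negative for 4, with a median of 0.08, and *Mme*, the endopeptidase neprilysin that makes angiotensin 1-7, differed most, at -1.41 and -1.25 on 8 kPa against 0.02 and -0.02 on 126 kPa. Next in size were *Klk1*, a kallikrein, with 0.62 and *Nln*, the endopeptidase neurolysin, with 0.42. None of the 14 passed in any of the 4 tested comparisons. With 1 array left out, which leaves 1 array in a group, *Anpep* and *Ctsa* passed with the hairpins and *Klk1* between the mutants, all as lower. Without Scramble replicate 2 far more of all features passed too. *Anpep*, the aminopeptidase that shortens angiotensin III, was at -1.19 and -1.33 with shYAP, at -1.85 and -2.16 with shTAZ and at 0.58 and -0.58 with Scramble. Its differences from Scramble were -1.26 with shYAP (limma adjusted p = 0.156) and -2.01 with shTAZ (limma adjusted p = 0.116). Within the shRNA set *Anpep* was, like the macrophage markers, highest in Scramble replicate 1. On 8 kPa, where the macrophage list was lower, *Anpep* lay between 0.15 and 0.23, against -0.03 and 0.03 on 126 kPa. On the mutant arrays as deposited it lay between -0.53 and -0.02. *Mme* had differences from Scramble of 0.99 with shYAP (limma adjusted p = 0.288) and 0.44 with shTAZ (limma adjusted p = 0.697). Also among the largest differences from Scramble were *Ctsa*, a lysosomal carboxypeptidase, with -0.41 with shYAP, and *Klk1* with 0.32 with shTAZ. In shYAP against shTAZ the largest were 0.75 for *Anpep*, 0.56 for *Mme* and 0.23 for *Cma1*, a mast cell chymase. Between the mutants the largest were -0.77 for *Klk1*, -0.68 for *Rnpep*, aminopeptidase B (limma adjusted p = 0.132), and -0.38 for *Nln*.

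Receptor partners and signalling genes were measured for 16 of 18. Differences on 8 kPa were positive for 6 and negative for 10, with a median of -0.10. *Rgs2*, which restrains Gq signalling downstream of the type 1 receptor, was at -1.13 and -1.84 on 8 kPa against 0.04 and -0.04 on 126 kPa. *Nox4*, an NADPH oxidase, differed by -0.62 and *Plcb4*, a phospholipase C, by 0.31. With shYAP 1 of 16 passed, as higher. It was *Rgs4*, another regulator of G protein signalling, at 1.21 and 1.11 with shYAP against -0.20 and 0.20 with Scramble. Its difference was 1.16 (SE 0.15, limma adjusted p = 0.0449). The call held after median centring and in the fit to 14 arrays (limma adjusted p = 0.0423 and 0.0138). It was lost with a replicate block, array weights or only the groups compared (limma adjusted p = 0.0827, 0.0519 and 0.151), and without Scramble replicate 1. Without a shYAP or shTAZ array few or none of all features passed, so a lost call there says little about *Rgs4*. With each array left out in turn, the *Rgs4* difference stayed between 0.962 and 1.36. Without Scramble replicate 2 more of the 16 passed with each hairpin, as did far more of all features. With shTAZ 0 of 16 passed on all arrays, and the largest differences were -1.86 for *Rgs2* (limma adjusted p = 0.187), 0.83 for *Rgs5* (limma adjusted p = 0.164) and 0.67 for *Nox4* (limma adjusted p = 0.210). As with *Anpep*, *Rgs2* was highest in Scramble replicate 1, at 0.78 against -0.78 in replicate 2. Its difference from Scramble with shYAP was -1.32, the largest in size of the 16, and did not pass. In shYAP against shTAZ 0 of 16 passed, with 0.64 for *Rgs4*, -0.61 for *Nox4* and 0.55 for *Rgs2*.

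Between the mutants 1 of the 16 signalling genes passed, as lower. *Rgs2* was at -0.72 and -1.13 with YAP-5SA and at 0.23 and 0.39 with TAZ-4SA, and its difference was -1.23 (SE 0.18, limma adjusted p = 0.0435). The call was lost without TAZ-4SA replicate 2 (limma adjusted p = 0.0860) and in the fit to 14 arrays (limma adjusted p = 0.160).

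Of the neighbouring vasoactive peptide systems, 13 of 15 genes were measured. Differences on 8 kPa were positive for 8 and negative for 5, with a median of 0.17. *Kng1*, the kininogen precursor of bradykinin, was at -1.68 and -1.81 on 8 kPa against 0.16 and -0.16 on 126 kPa. *Ramp1*, which encodes an accessory protein of the calcitonin receptor-like receptor, was at 0.98 and 1.03 on 8 kPa against -0.04 and 0.04 on 126 kPa. *Ramp2*, of the same family, was at -0.77 and -1.22 on 8 kPa against 0.01 and -0.01 on 126 kPa. Between the mutants 1 of 13 passed. This was *Adm*, the vasodilator peptide adrenomedullin, at 1.38 and 1.73 with YAP-5SA and at -0.43 and -0.29 with TAZ-4SA. Its difference of 1.91 (SE 0.17, limma adjusted p = 0.0118) passed in all 8 alternatives, with an adjusted p between 0.000532 and 0.0108. No gene of the 13 passed in the shRNA comparisons, but some did without Scramble replicate 2, where far more of all features passed too. Nearest to the threshold were *Avpr1a*, the vasopressin V1a receptor, with 0.61 with shYAP (limma adjusted p = 0.0798), and *Ramp1* with 0.98 with shTAZ (limma adjusted p = 0.0853). *Ramp2* differed by 0.82 and *Ramp1* by 0.57 with shYAP, *Calcrl*, the calcitonin receptor-like receptor, by -0.78 and *Edn1*, endothelin 1, by 0.65 with shTAZ. In shYAP against shTAZ the largest differences were -0.74 for *Edn1*, 0.61 for *Avpr1a* and 0.58 for *Ramp2*.

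**Figure D4:**
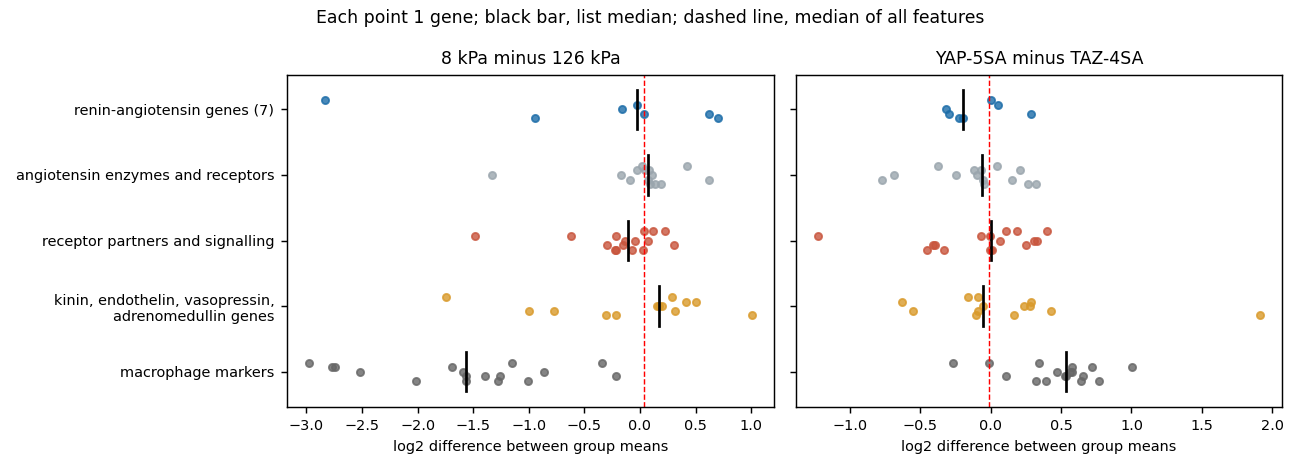
Difference between group means in log2 (x axis) for the genes of 5 lists (y axis), on 8 kPa minus 126 kPa (left) and YAP-5SA minus TAZ-4SA (right), with 1 point per gene, a bar at each list's median and a dashed line at the median of all features. *Agtr2* at -2.84 is the lowest of the 7 renin-angiotensin genes on the left, and *Adm* at 1.91 is the highest point on the right.

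Genes with the pattern most like that of *Agtr2* were sought by Pearson's correlation over the 14 arrays after the mean of each set was subtracted, among 710 features that deviate by at least 1 from their set mean on some array. The 5 closest were *Igfbp3* (r = 0.928), which encodes an insulin-like growth factor binding protein, *Fbn2* (r = 0.905), fibrillin 2, *Vcan* (r = 0.899), the proteoglycan versican, *Dpt* (r = 0.898), the matrix protein dermatopontin, and *Mup2* (r = 0.875), of the major urinary protein family. *Mup2* is uncertain, since that family has near-identical copies. The points share arrays and the contrast that chose *Agtr2*, so these values only describe. Subtracting the set means also removes how high or low a gene lay on the mutant arrays as deposited. With TAZ-4SA, *Dpt* was at -1.33 and -1.74 and *Fbn2* at 0.59 and 0.42. *Igfbp3* was at -2.02 and -2.39 on 8 kPa against -0.04 and 0.04 on 126 kPa, and at 0.51 and 0.74 with shYAP, -0.07 and -0.66 with shTAZ and -0.49 and 0.49 with Scramble. Like *Agtr2*, it was low on the soft gel and lower in Scramble replicate 1 than in replicate 2. *Dpt* was at -1.44 and -1.57 on 8 kPa against 0.03 and -0.03 on 126 kPa, and at 1.61 and 1.27 with shYAP, 0.12 and -0.48 with shTAZ and -0.49 and 0.49 with Scramble. Over the 10 arrays of the shRNA and mutant sets alone, the 5 closest genes were *Gpr50*, *AW551984*, *Arrdc4*, *Dpt* and *Prokr1*, with r between 0.850 and 0.905, and 1 of them, *Dpt*, was among the 5 found over all arrays.

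**Figure D5:**
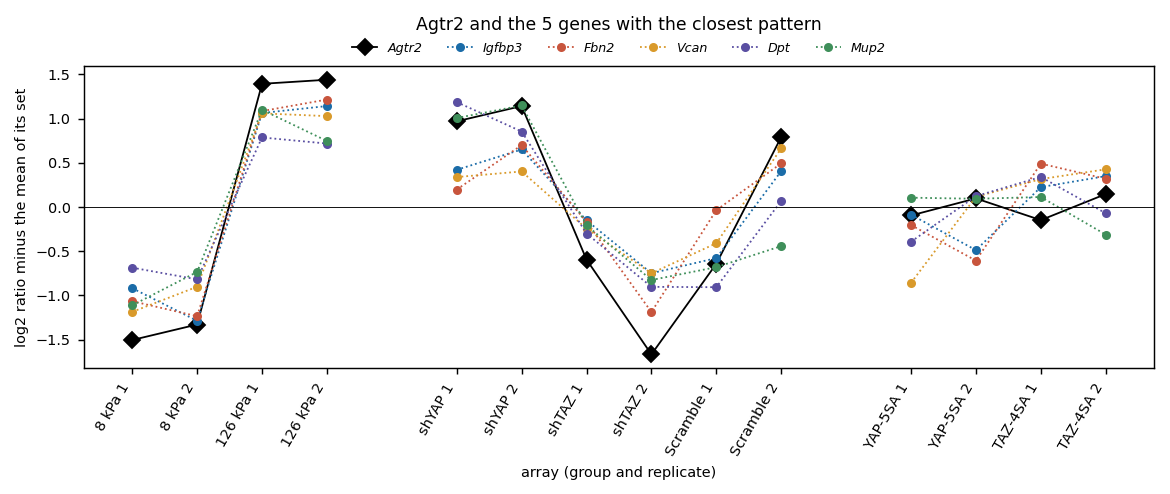
Log2 ratio minus the mean of its set (y axis) of *Agtr2* (black diamonds) and the 5 genes with the closest pattern (coloured points) on each of the 14 arrays (x axis); lines join arrays of 1 set to guide the eye. All 6 genes were low on 8 kPa and high on 126 kPa, with r between 0.875 and 0.928 for the 5 genes, and on the mutant arrays *Agtr2* stayed close to its set mean.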

How the data were processed

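RNA of 14 cultures in 7 groups was hybridised to Clariom S Mouse arrays. Per the submitters' processing notes, the authors used Affymetrix Expression Console (version 1.4); its summarisation setting is not given in the sources used here. What the authors deposited are log2 ratios within 3 sets of arrays. Signal levels are not among them, so dim features were not filtered, and precision is limited by the number of arrays. Of 22206 features, 19572 have 1 gene symbol and 2634 have none in the platform's annotation, and no array column went unmatched. Features with a value on every array of a set entered the fits (22206 for the gels, 22122 for the hairpins and 22127 for the mutants).

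Group means were compared within a set with limma 3.58.1 (R 4.3.3), adjusted by Benjamini-Hochberg over all features of the set and called at an adjusted p under 0.05. The fit was tested on simulated data. The sources used here do not give the authors' test for the arrays. Alternatives were median centring, leaving out each array, a replicate block, array weights, 1 fit to 14 arrays, and only the groups compared. The 7 genes and all gene lists were chosen with earlier results of these data known. Named are all 7 genes, the 5 most like *Agtr2*, and of each further list those past the test or else the 3 with the largest difference; *Yap1* and *Wwtr1* are added as the hairpins' targets, and genes closest to *Agtr2* without the gel arrays after their values were seen.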

Additional observations from a re-analysis of the deposited data

How the results depend on the processing

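With 2 arrays per group, precision was limited by their number, and how far a signal stood above background was not analysed here. With each array left out in turn, *Enpep* passed against Scramble with each hairpin without Scramble replicate 2, where far more of all features passed too. No other of the 7 genes passed with an array left out. In the remaining alternatives 0 passed, with a lowest adjusted p of 0.0648 (*Agtr1a* with shYAP, 14 arrays fitted together). Centring put *Ace* at 0.67 on 8 kPa against 126 kPa and turned *Agtr1b* to -0.031 with shYAP and -0.0041 with shTAZ.

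Leaving out arrays changed the sign of small differences. On 8 kPa against 126 kPa, *Agtr1b* ranged over -0.18 to 0.13 and *Agt* over -0.062 to 0.14, while *Agtr1a* stayed between -0.32 and -0.0069 and *Mas1* between 0.36 and 0.89. Their ranges for *Agtr1b* were -0.17 to 0.20 with shYAP, -0.00025 to 0.074 with shTAZ, -0.20 to 0.16 in shYAP against shTAZ and -0.10 to 0.20 between the mutants. *Enpep* with shTAZ ranged over -0.18 to 0.88. In shYAP against shTAZ, *Agt* ranged over -0.035 to 0.0077 and *Agtr1a* over -0.091 to 0.76. Between the mutants, *Agtr2* ranged over -0.15 to 0.15 and *Ace* over -0.56 to 0.11. The cause was not tested.

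Of the 5 genes most like *Agtr2*, 3 were also among the closest 5 by Spearman correlation and 1 over the shRNA and mutant arrays alone. In the fit to 14 arrays, *Anpep* passed as lower with each hairpin, and *Rgs2* as lower and *Ramp1* as higher with shTAZ. Lost calls of *Yap1*, *Rgs4*, *Rgs2* and the gene lists are given with their values.

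Replicate numbers are shared by the labels, but were not taken as pairs, since deviations of same-numbered arrays had r between -0.02 and 0.20 over features. With the replicate block 0 of the 7 genes passed in each comparison, and the features called were 31 with shYAP, 0 with shTAZ, 1 in shYAP against shTAZ and 294 between the mutants. Counts of all features called moved in several settings, mostly by over 1.5 times. With shYAP they were 118, against 1937 without Scramble replicate 2, 93 without Scramble replicate 1, 0 without either shYAP array, 2 without either shTAZ array, 62 with array weights, 568 in the fit to 14 arrays and 2 with only the groups compared. With shTAZ they were 0, against 147 and 1632 without Scramble replicate 1 and 2, and 392 in the fit to 14 arrays. In shYAP against shTAZ they were 10, against 0 without any 1 of the shYAP or shTAZ arrays, 27 with array weights and 40 in the fit to 14 arrays. Between the mutants they were 198, against 881 and 364 without YAP-5SA replicate 1 and 2, and 547 in the fit to 14 arrays.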
